A study of Homo sapiens with 16 samples.

Results

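Jumonji genes encode enzymes with a JmjC domain, a fold that uses molecular oxygen, iron and 2-oxoglutarate, and most of them remove methyl groups from the lysines of histones. They belong to the same wide class of dioxygenases as the prolyl hydroxylases that mark the hypoxia-inducible factors (HIF) for destruction in well-oxygenated cells, and several are known to be induced when oxygen falls. HIF binds DNA as a heterodimer of an oxygen-regulated α subunit, HIF-1α or HIF-2α (here called isoforms), with HIF-1β, and recognises a short core motif written RCGTG (R standing for A or G). The data described here are the HIF-1α and HIF-2α binding sites near 9 of these genes: KDM2A, KDM2B, KDM3A, KDM4A, KDM4B, KDM4C, KDM5B, KDM6B and JMJD6.

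The genes were picked by name from the 19794 protein-coding genes of the annotation, and a peak was assigned to a gene when its centre lay within 50 kb of any of the gene's protein-coding transcription start sites, whether or not another gene was nearer. The choice was made with earlier results of these data known, and KDM3A, KDM4B and KDM4C belong to a gene list that the study itself selected on these samples, so the counts below describe these genes and are not independent evidence about them. Peaks came from chromatin immunoprecipitation and sequencing (ChIP-seq) with polyclonal antibodies against HIF-1α or HIF-2α in A549 lung, HCT116 colorectal, PC3 prostate and T47D breast cancer cells, all kept in 0.5% oxygen for 16 hours and with no genetic change or drug named in the labels. There were 8 groups (4 lines with 2 antibodies) of 2 libraries each, and nothing in the labels says whether these were separate cultures, so the spread between them may be technical. Each cell line is a single established line, and lists from normoxic cells were not used here.

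The 16 lists held 23398 peaks, between 275 (PC3 HIF-2α replicate 1) and 4505 (HCT116 HIF-1α replicate 2), and 93 of these peaks lay near the 9 genes, 69 with HIF-1α and 24 with HIF-2α. Read depth is unknown from the lists, so a gene without a peak may have binding below the peak caller's threshold. Each peak carried the caller's score, which was expressed here as a percentile within its own list, 100 being the highest-scoring peak and 0 being used for a gene with no peak.

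Overlapping peaks merged into 18 sites. The stretches that hold RCGTG at the sites on which the results turn are shown here, read from the + strand of GRCh37 with every match on either strand in capitals (ACGTG or GCGTG, or their reverse complements CACGT and CACGC). KDM4B and KDM6B have their motifs in stretches outside annotated untranslated regions, upstream of the start site at chr19:4968590-4968859 and in an intron at chr17:7739026-7739210. KDM5B is shown at chr1:202780382-202780669, KDM2A at chr11:66886542-66886624, and KDM4C at both of its main sites, chr9:6716212-6716476 (upstream) and chr9:6757339-6757630 (start site). The KDM4C start-site stretch leaves out matches in annotated untranslated sequence that lie nearer to the centre, the nearest at 93 bp. The nearest match shown lies 170 bp from the centre.
KDM4B: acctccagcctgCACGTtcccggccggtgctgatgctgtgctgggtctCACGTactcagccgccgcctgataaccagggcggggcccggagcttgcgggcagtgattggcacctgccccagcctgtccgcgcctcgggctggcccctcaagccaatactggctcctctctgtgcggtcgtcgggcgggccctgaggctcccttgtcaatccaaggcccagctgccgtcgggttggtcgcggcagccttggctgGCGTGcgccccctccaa
KDM4C upstream: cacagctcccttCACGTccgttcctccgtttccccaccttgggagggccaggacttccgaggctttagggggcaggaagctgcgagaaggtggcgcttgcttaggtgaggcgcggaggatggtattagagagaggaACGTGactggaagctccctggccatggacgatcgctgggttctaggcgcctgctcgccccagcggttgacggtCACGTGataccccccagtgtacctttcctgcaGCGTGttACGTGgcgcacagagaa
KDM4C start site: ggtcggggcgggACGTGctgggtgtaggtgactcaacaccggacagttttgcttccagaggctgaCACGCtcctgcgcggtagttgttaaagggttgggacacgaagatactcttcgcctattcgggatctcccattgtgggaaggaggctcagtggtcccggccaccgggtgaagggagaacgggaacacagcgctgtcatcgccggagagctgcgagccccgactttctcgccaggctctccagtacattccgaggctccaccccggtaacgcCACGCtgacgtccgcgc
KDM5B: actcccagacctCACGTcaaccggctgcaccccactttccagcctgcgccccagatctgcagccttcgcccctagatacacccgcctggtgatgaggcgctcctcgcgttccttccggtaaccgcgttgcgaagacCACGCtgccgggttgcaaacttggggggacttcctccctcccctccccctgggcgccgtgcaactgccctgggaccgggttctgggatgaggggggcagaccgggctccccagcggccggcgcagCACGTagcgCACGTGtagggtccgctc
KDM6B: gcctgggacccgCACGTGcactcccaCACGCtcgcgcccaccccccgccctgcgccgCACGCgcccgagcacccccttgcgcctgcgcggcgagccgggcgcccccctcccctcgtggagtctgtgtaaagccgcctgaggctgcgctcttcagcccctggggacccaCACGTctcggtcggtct
KDM2A: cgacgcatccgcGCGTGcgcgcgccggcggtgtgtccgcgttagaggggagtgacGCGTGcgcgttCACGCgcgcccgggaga

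At the KDM3A site every match in the central 1000 bp lay in transcribed sequence annotated as untranslated, so only short stretches around the ACGTG matches are shown, from the - strand at chr2:86667832-86667860 and chr2:86667951-86667979.
KDM3A first: aggcgcaggcgCACGTGgtactgatcgtg
KDM3A second: gcagggaagagaACGTGcggtttcaggcg

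In the central 200 bp, 13 of the 18 sites (72.2%) held RCGTG on at least one strand, against 52.2% of all 11664 merged sites of the 16 lists, and 8 of the 18 held ACGTG, against 27.9% of all sites. In windows of 1000 bp all 18 did, but so did 89.5% of all sites. A palindromic CACGTG, which is also the E-box bound by other factors of the same structural family, was counted as 1 match. With this count, the 1000 bp windows held a median of 4.5 matches at the sites of these genes and 3 at all sites. The sites were also richer in CpG dinucleotides, with a median of 17.5 per 200 bp against 11, and since RCGTG contains CpG, the share of the motif that goes with base composition was not tested. Sites without RCGTG in the central 200 bp included the KDM3A site, with a peak in all 16 libraries, and the start sites of KDM2A and JMJD6. The 13 sites with it included some nearer to another gene and some with a peak in only 1 library. In the wider windows of 1000 bp, only the KDM2A start site lacked ACGTG among the sites with a peak in both replicates of at least 1 group. It had 0 matches of ACGTG and 3 of GCGTG. The start-site peak of KDM4C held the most, at 10 matches.

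Of the 9 genes, 8 had a peak within 50 kb in at least 1 library, where 59.7% of all protein-coding genes did. A stricter count asked for a peak in both replicates of a group. With HIF-1α, 25 of the 36 combinations of gene and cell line met it (69.4%), against 12.03% of combinations over all protein-coding genes. With HIF-2α, 10 of 36 did (27.8%), against 2.75%. By cell line, HIF-1α peaks lay near 5 of the 9 genes in A549 (2.6% of all genes), 7 in HCT116 (27.8%), 7 in PC3 (12.6%) and 6 in T47D (5.19%). HIF-2α peaks lay near KDM3A and KDM4B alone in A549 (4.64% of all genes), PC3 (1.2%) and T47D (1.31%), and also near KDM6B and JMJD6 in HCT116 (3.82%). The bar chart of these shares puts the 9 genes above the background in each of the 8 groups, by the smallest margin in HCT116 HIF-1α relative to its background.

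**Figure D1:**
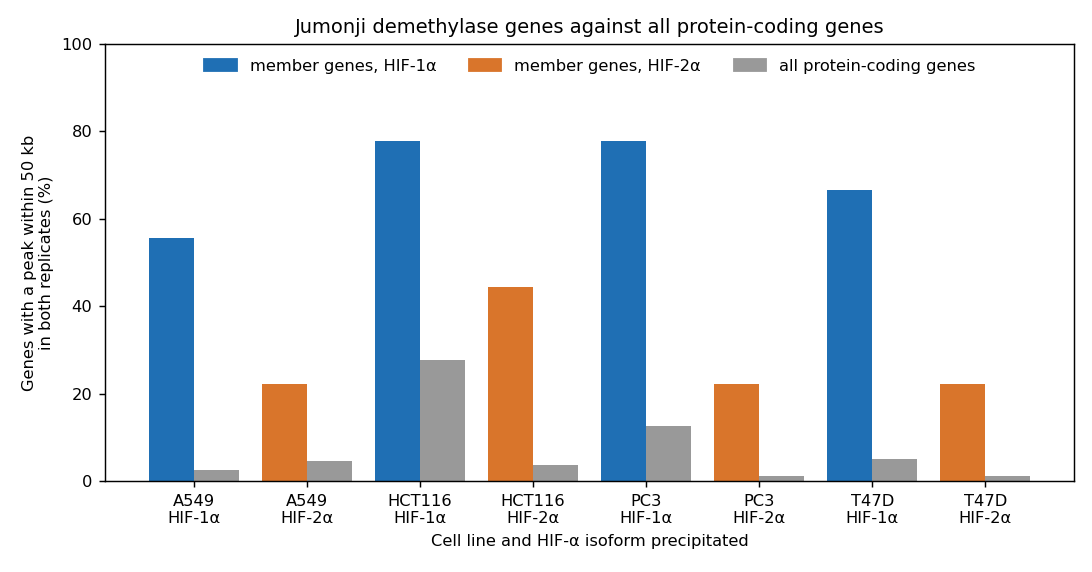
Percentage of genes with a peak within 50 kb in both replicates, for each combination of cell line and isoform. Coloured bars are the 9 Jumonji genes (blue, HIF-1α; orange, HIF-2α) and grey bars all 19794 protein-coding genes; the coloured bar is the taller in all 8 groups, with 7 of 9 genes in HCT116 and PC3 HIF-1α.

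Genes differed in how widely they were bound. KDM2A, KDM3A, KDM4B and KDM4C had peaks in both replicates of all 4 HIF-1α groups, which 1.53% of protein-coding genes did. KDM3A and KDM4B had them in all 8 groups, which 0.237% of genes did, and KDM2A had a peak in all 8 HIF-1α libraries and in no HIF-2α library, which again 0.237% of genes did. At the other end, KDM2B had peaks in 3 libraries and KDM4A in none. The map of all 18 sites shows this order from full rows to single cells.

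**Figure D2:**
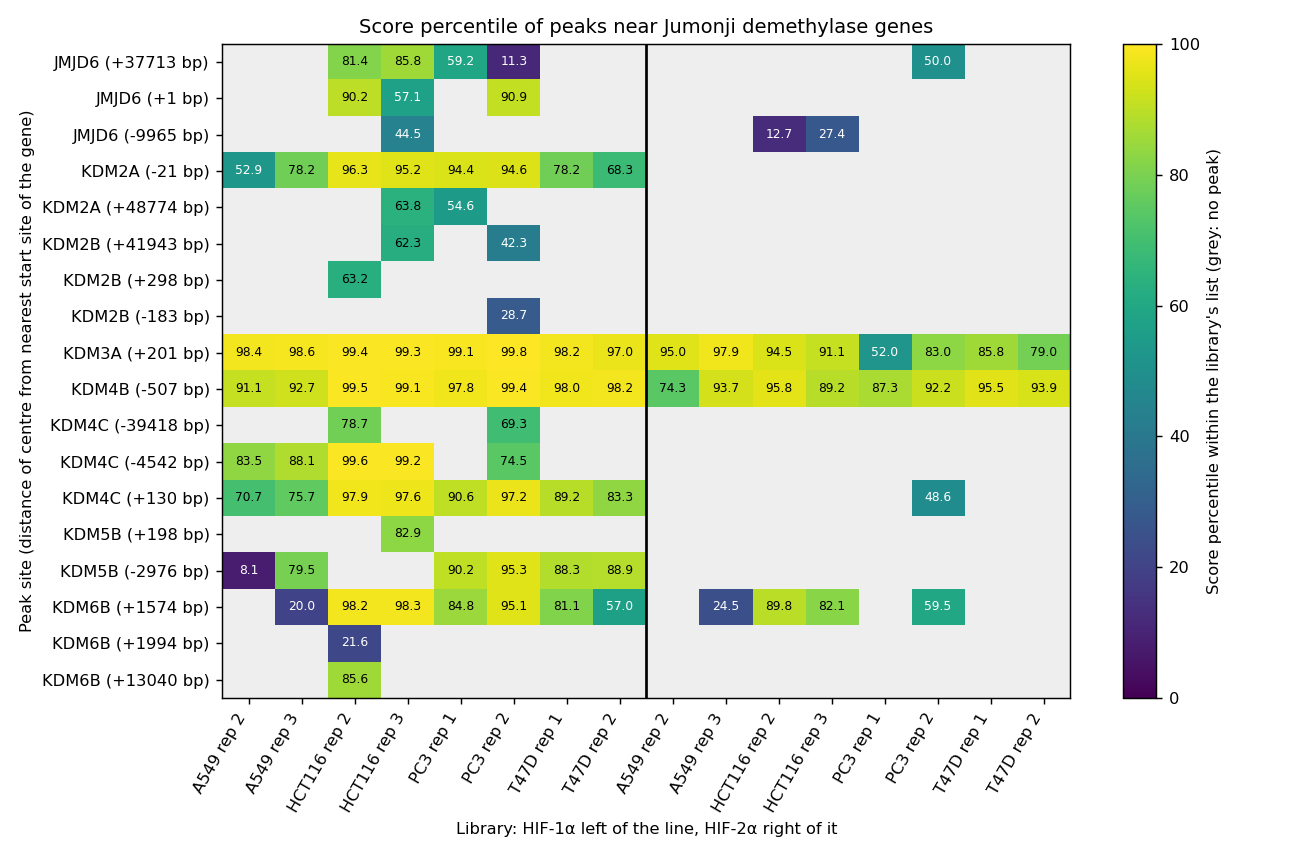
Score percentile of the peak at each of the 18 sites (rows, named by gene and by the distance of the site centre from the gene's nearest start site, negative upstream) in each of the 16 libraries (columns, HIF-1α left and HIF-2α right of the black line). Grey cells hold no peak; the KDM3A and KDM4B rows are filled in 16 of 16 libraries, and the KDM2A start-site row in the 8 HIF-1α libraries alone.

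KDM3A (also JMJD1A), which removes methyl groups from mono- and dimethylated H3K9, a mark of silent chromatin, had 1 site. It spanned chr2:86667257-86670186, its centre lay 201 bp downstream of a KDM3A start site in a stretch annotated as intron, and no other gene was nearer. With HIF-1α the peak had percentiles of 98.4 and 98.6 in A549, 98.2 and 97.1 in T47D, 99.1 and 99.8 in PC3 and 99.4 and 99.3 in HCT116. With HIF-2α these were 95.0 and 97.9 in A549, 85.8 and 79.0 in T47D, 52.0 and 83.0 in PC3 and 94.5 and 91.1 in HCT116. The groups did not overlap in any of the 4 lines, the HIF-1α libraries being the higher in each, and the lowest value came from the shortest list, PC3 HIF-2α replicate 1. Such separation in all 4 lines was seen for 5.31% of the 3787 genes with a peak in at least 4 libraries. In the PC3 HIF-1α replicate 2 list of 3413 peaks, the KDM3A peak was the 8th by score.

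KDM4B, which acts on trimethylated H3K9 and H3K36, also had 1 site, at chr19:4967690-4969496, intergenic and with its centre 507 bp upstream of the KDM4B start site. It holds the CACGT matches printed above near its centre. Percentiles with HIF-1α were 91.1 and 92.7 in A549, 98.0 and 98.2 in T47D, 97.8 and 99.4 in PC3 and 99.5 and 99.1 in HCT116. Percentiles with HIF-2α were 74.3 and 93.7 in A549, 95.5 and 93.9 in T47D, 87.3 and 92.2 in PC3 and 95.8 and 89.2 in HCT116. The isoforms overlapped in A549, where HIF-2α replicate 3 was above both HIF-1α libraries, and did not overlap in the other 3 lines. The share of all genes separated in 3 lines was not computed. Peak centres of the 16 libraries stayed within 126 bp upstream and 79 bp downstream of the site centre.

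KDM3A and KDM4B were mostly the highest-scoring of the 9 genes. KDM3A had the highest percentile of the 9 genes in 6 of the 8 HIF-1α libraries and in 3 of the 8 HIF-2α libraries, and KDM4B in 1 and 5. In A549 KDM3A was above KDM4B in all 4 libraries, by 7.33 and 5.88 percentile points with HIF-1α and by 20.7 and 4.26 with HIF-2α. KDM4B was above KDM3A in both HIF-2α libraries of PC3 (KDM3A minus KDM4B being -35.3 and -9.15 points) and of T47D (-9.69 and -14.9). In HCT116 the sign of the difference varied between replicates with both isoforms (-0.111 and 0.246 points with HIF-1α, -1.35 and 1.89 with HIF-2α), as it did in T47D with HIF-1α (0.131 and -1.13). In PC3 HIF-1α it was 1.25 and 0.381, so that PC3 was the only line in which both replicates had opposite signs with the 2 isoforms. Whether the order of the genes differs between isoforms beyond this spread was not tested.

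KDM4C, a relative of KDM4B with the same substrates, was bound at more than 1 place. The site at a start site inside the gene, chr9:6756963-6759057, had its centre 130 bp downstream of a start site and was present in all 8 HIF-1α libraries. Its percentiles were 70.7 and 75.7 in A549, 89.2 and 83.3 in T47D, 90.6 and 97.2 in PC3 and 97.9 and 97.6 in HCT116, and the only HIF-2α peak was in PC3 replicate 2, at 48.6. The other site, chr9:6715466-6717046, lay 4542 bp upstream of the gene's most distal start site and was intergenic. It was present in 5 HIF-1α libraries, with percentiles of 99.6 and 99.2 in HCT116, 83.5 and 88.1 in A549 and 74.5 in PC3 replicate 2, and in no HIF-2α library. It scored above the start-site peak in both A549 and both HCT116 libraries and below it in PC3 replicate 2. T47D had no peak there. In HCT116 replicate 2 it reached a score of 1800.54, the highest of any of the 9 genes in that list, where the start-site peak had 689.23. A further site, 39418 bp upstream of KDM4C with GLDC as the nearer gene, had a peak in HCT116 replicate 2 and PC3 replicate 2 with HIF-1α, at 78.7 and 69.4.

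KDM2A, which demethylates H3K36 and binds unmethylated CpG islands through a zinc finger, had its site at chr11:66884970-66887480, with its centre 21 bp upstream of the start site. Its percentiles with HIF-1α were 52.9 and 78.2 in A549, 78.2 and 68.4 in T47D, 94.4 and 94.6 in PC3 and 96.3 and 95.2 in HCT116. All 8 HIF-2α libraries lacked a peak, so that the isoforms did not overlap in any line, as for 5.31% of genes with a peak in at least 4 libraries. A second site 48774 bp downstream lay near ANKRD13D, which was 482 bp from it, and had 1 peak each in HCT116 and PC3 HIF-1α. These peaks, 48438 and 49110 bp from a KDM2A start site, are the ones nearest to the 50 kb limit from inside. KDM2B, the closest relative of KDM2A and a recruiter of Polycomb complexes to CpG islands, had 4 peaks at 3 sites within its own gene, all with HIF-1α. In HCT116 replicate 2 the peak had a percentile of 63.2, and in replicate 3 it lay at another site with 62.3, so the count of both replicates for this gene does not rest on 1 shared site. In PC3 replicate 2 the peaks had percentiles of 42.3 and 28.7.

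KDM5B removes methyl groups from H3K4, a mark of active promoters. Its main site, chr1:202779398-202781979, was intergenic, with its centre 2976 bp upstream of the start site. Percentiles with HIF-1α were 8.12 and 79.5 in A549, 90.2 and 95.3 in PC3 and 88.3 and 88.9 in T47D. The replicates agreed in PC3 and T47D, whereas the peak of A549 replicate 2, with a score of 51.35, was close to the lowest score of that list (50.01). HCT116, whose HIF-1α lists were the longest, had no peak at this site. There, replicate 3 had a peak at the start site itself, 198 bp downstream, at 82.9. HIF-2α lists had no peak near KDM5B in any line.

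KDM6B (JMJD3) removes methyl groups from H3K27, the mark set by Polycomb. Its main site, chr17:7737225-7740822, lay in an intron with its centre 1574 bp downstream of a start site. HIF-1α percentiles were 98.2 and 98.3 in HCT116, 84.8 and 95.1 in PC3, 81.1 and 57.0 in T47D and, in A549, 20.0 in replicate 3 with no peak in replicate 2. HIF-2α percentiles were 89.8 and 82.1 in HCT116, 59.5 in PC3 replicate 2 and 24.5 in A549 replicate 3, and T47D had none. HCT116 was thus the only line with HIF-2α in both replicates, and in A549 each isoform had 1 peak, in replicate 3. Single peaks in HCT116 HIF-1α replicate 2 lay further into the gene and near CYB5D1 and NAA38.

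JMJD6, a JmjC protein with lysyl hydroxylase activity, stands in a gene-dense stretch, and 8 of its 11 peaks were nearer to another gene. At its own start site, chr17:74721505-74723889, HCT116 HIF-1α had percentiles of 90.2 and 57.1 and PC3 HIF-1α replicate 2 had 90.9. The site in most libraries, chr17:74683500-74685684, was in an intron of MXRA7, 37713 bp from JMJD6, with HIF-1α percentiles of 81.4 and 85.9 in HCT116 and 59.2 and 11.3 in PC3, and a peak ranked 646th of 1290 by score in PC3 HIF-2α replicate 2. The only place where both HCT116 HIF-2α libraries had a peak, at 12.7 and 27.4, was 9965 bp upstream of JMJD6 and nearest to MFSD11 and SRSF2. A549 and T47D had no peak near JMJD6 with either isoform. KDM4A, which shares its substrates with KDM4B and KDM4C, had no peak within 50 kb in 16 lists. The nearest was 57003 bp away, just outside the limit, in 3 HIF-1α libraries and closest to ST3GAL3.

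Peaks that were nearer to one of the 9 genes than to any other gene were mostly close to a start site with both isoforms. With HIF-1α, 59 such peaks had a median distance of 428 bp and 64.4% lay within 1000 bp, where all HIF-1α peaks within 50 kb of a gene had a median of 221 bp and 71.9%. With HIF-2α, 21 such peaks had a median of 481 bp and 81.0% within 1000 bp, where all HIF-2α peaks had a median of 5942 bp and 32.4%. The HIF-2α peaks of these genes are thus repeated observations of few sites, KDM3A and KDM4B giving 16 of the 21, and were not tested against the rest. In the plot of positions, the KDM4B peaks keep to 1 narrow position, and those of KDM5B lie together in 6 libraries and at the start site in HCT116. Peaks of KDM2A lie at or near the start site and, in 2 libraries, at a site 48774 bp downstream. Peaks of KDM4C lie around a start site, at the site 4542 bp upstream in 5 libraries and at the site 39418 bp upstream in 2.

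**Figure D3:**
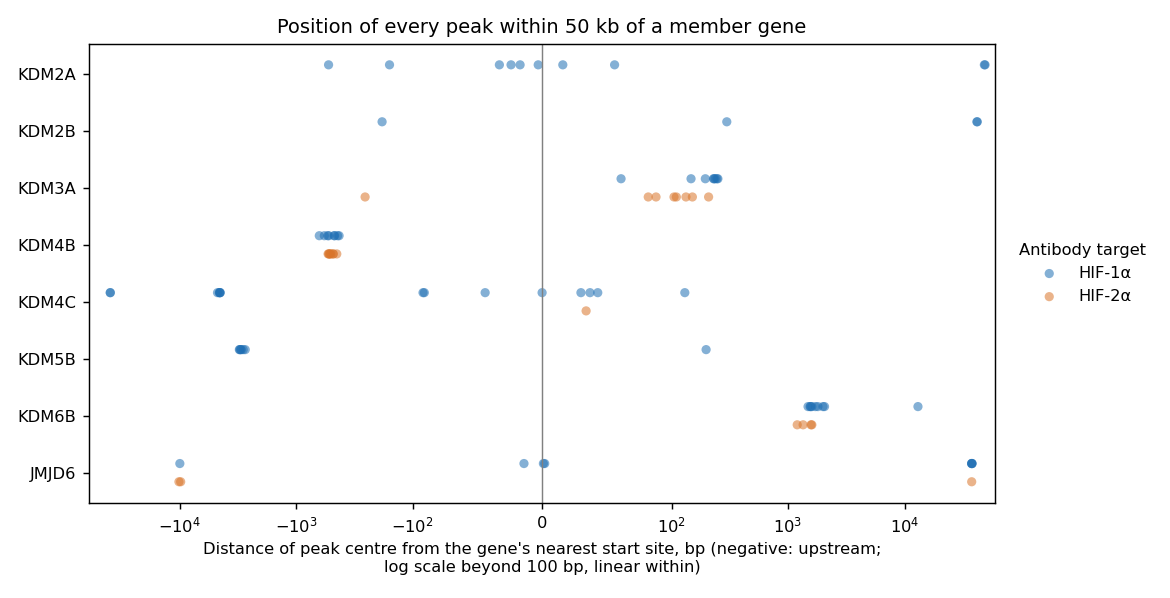
Distance of the centre of each peak within 50 kb from the nearest start site of its gene, in bp, negative upstream, on an axis that is linear within 100 bp and logarithmic beyond. Blue points are HIF-1α and orange points HIF-2α libraries; the HIF-2α points lie at KDM3A, KDM4B, KDM6B, JMJD6 and, in 1 library, KDM4C.

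The isoforms were compared over all 4 lines by exchanging the isoform labels among the 4 libraries of each line in every possible way (two-sided exact permutation test, 1296 relabellings, smallest possible p 0.00154), for each of 3787 protein-coding genes with a peak in at least 4 libraries, followed by Benjamini-Hochberg adjustment. HIF-1α was higher for 414 genes (10.9%) and HIF-2α for 1 (0.0264%), and the median difference over all genes tested was 23.9 percentile points in favour of HIF-1α. Each isoform was precipitated with its own antibody. Isoform, antibody and the amount of each protein in a line therefore cannot be told apart in this comparison or in the differences of single genes below. List length enters this measure, since a percentile from a long list stands for a place further down the ranking than the same percentile from a short one, and HIF-1α lists were the longer in 3 of the 4 lines. KDM4B, for instance, was ranked 34th in PC3 HIF-1α replicate 1 (97.8) and 36th in PC3 HIF-2α replicate 1 (87.3). With every list reduced to its 275 top peaks and the percentiles recomputed, 294 of 719 genes were called, 267 of them higher with HIF-1α.

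Of the 7 Jumonji genes tested, 4 were called, all higher with HIF-1α, and KDM2B and KDM4A had too few peaks. KDM2A, KDM4C and KDM5B entered the test through their HIF-1α peaks, having HIF-2α peaks in 0, 1 and 0 libraries, so their calls restate where peaks were present and are given as a description. The mean percentile of KDM4C was 91.3 with HIF-1α and 6.08 with HIF-2α, a difference of 85.3 points against a replicate SD of 12.4 points pooled over the groups. That of KDM2A was 82.3 with HIF-1α and 0 with HIF-2α (replicate SD 6.8 points), and that of KDM5B was higher with HIF-1α by 66.7 points (replicate SD 27.4). With equal lists these differences were 71.3 points for KDM4C, 38.4 for KDM2A and 35.0 for KDM5B. Groups with no peak enter the pooled SDs with an SD of 0. These are all HIF-2α groups of KDM2A and KDM5B, and all but PC3 for KDM4C. For KDM2A and KDM5B the pooled values therefore understate the spread between HIF-1α replicates. That of KDM5B was wide in HCT116 (SD 58.6 points) and A549 (50.5) and narrow in T47D (0.413) and PC3 (3.56). The widest for KDM2A was 17.9 points, in A549.

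KDM3A, which had a peak in every library, had a mean percentile of 98.7 with HIF-1α and 84.8 with HIF-2α. The difference of 13.9 points (exact permutation p = 0.00154, Benjamini-Hochberg adjusted p = 0.0289, replicate SD 8.02) was below the median of all genes, and with equal lists it was 27.9 points (exact permutation test, adjusted p = 0.0116). That median includes genes with no HIF-2α peak, scored 0. It is therefore not a like comparison for a gene with a peak in every library. For KDM2A, KDM3A and KDM4C both HIF-1α libraries were above both HIF-2α libraries in each of the 4 lines, as for 201 of the genes tested (5.31%).

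The other 3 genes did not pass the adjusted threshold. KDM4B differed by 6.75 points, 97.0 against 90.2 (exact permutation p = 0.00617, adjusted p = 0.0561), KDM6B by 34.8 points (exact permutation p = 0.0139, adjusted p = 0.0782) and JMJD6 by 29.5 points (exact permutation p = 0.0556, adjusted p = 0.112). The JMJD6 values come from different sites, several of them nearer to MXRA7 or MFSD11. With each peak given only to its nearest gene, JMJD6 had too few peaks to be tested. KDM4B had the smallest difference of the 7, and with equal lists its difference was 20.5 points and passed (exact permutation test, adjusted p = 0.0116), while that of KDM6B was 18.9 points and did not (0.0541). The calls depended on the measure and on the filter. Scored only as present or absent, none of the 4 passed, with KDM2A, KDM4C and KDM5B at an adjusted p of 0.119 (exact permutation test) and KDM3A at a difference of 0. Over all genes with a peak in at least 1 library none passed either, the adjusted p being 0.0903 for KDM2A, KDM3A and KDM4C and 0.132 for KDM5B (exact permutation test). The call of KDM3A was also lost without A549 HIF-1α replicate 3 (exact permutation test, adjusted p = 0.0529), PC3 HIF-1α replicate 1 (0.0722) or PC3 HIF-1α replicate 2 (0.0808). That of KDM5B was lost without A549 HIF-1α replicate 3 (0.0617), A549 HIF-2α replicate 2 (0.0640) or 3 (0.0617), HCT116 HIF-2α replicate 2 (0.0591) or 3 (0.0619), or T47D HIF-2α replicate 1 (0.0501). As KDM5B had no HIF-2α peak, leaving out any of these HIF-2α libraries left its difference at 66.7 points. Whether its call was kept or lost thus does not describe its binding.

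**Figure D4:**
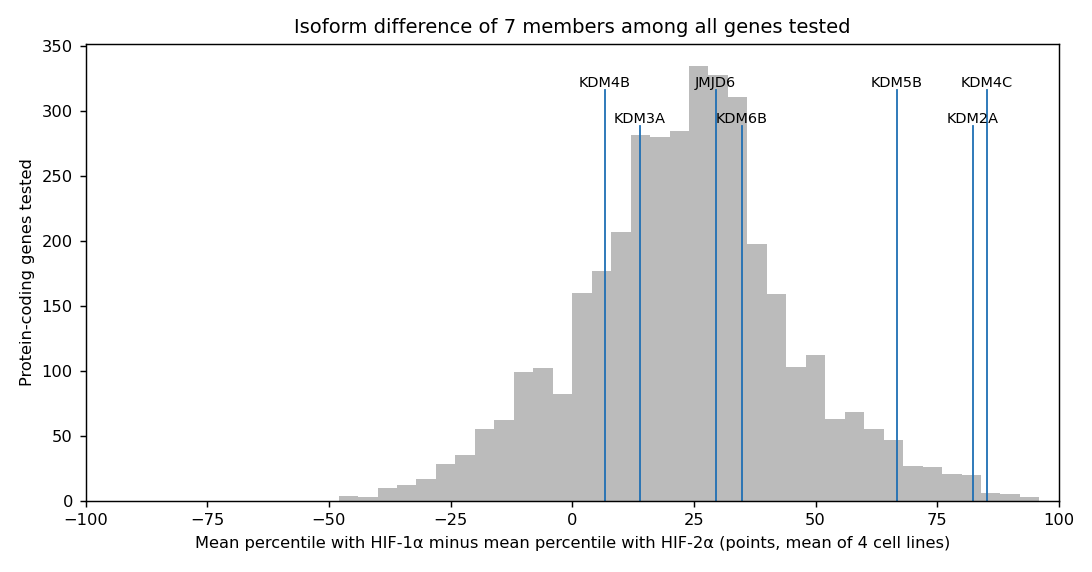
Number of protein-coding genes (vertical axis) by difference between the mean HIF-1α and mean HIF-2α percentile, in points averaged over 4 cell lines (horizontal axis), for the 3787 genes tested, with a line for each of the 7 Jumonji genes tested. KDM2A, KDM4C and KDM5B lie in the right tail above 66 points, whereas KDM4B and KDM3A lie at 6.75 and 13.9, left of the median of 23.9. The median includes genes with no HIF-2α peak, scored 0.

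Some genes on other chromosomes had nearly the same pattern of percentiles over the 16 libraries. The 2 closest to KDM3A were PGK1, a glycolytic enzyme gene, and its neighbour TAF9B, which share their peaks, with a mean absolute difference of 4.65 points per library, where the median over all genes was 72.4. For KDM4B they were the neighbours C4orf3 and FABP2 (2.49 points, all genes 74.3). For KDM4C they were P4HA2, a collagen prolyl hydroxylase subunit, and its neighbour PDLIM4 (2.77, all genes 35.6). PRDX4, a peroxiredoxin gene, was close to KDM2A (2.58) and also had peaks in 8 libraries. For JMJD6, absent from most libraries, they were NQO2 and SERPINB6 (4.33 each, all genes 18.3). The differences were larger for KDM5B, with DTWD2 (10.1) and BCL2L2 (10.4), and KDM6B, with AP3D1 (7.82) and TPD52 (8.82). These values describe the same 16 lists and share their lengths, and no test was made.

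Of 21 other JmjC genes, HR and KDM5C had peaks in both replicates of all 4 HIF-1α groups (1.53% of all genes did). None had them in all 8 groups (0.237% of all genes did). Over the 4 lines, 18 of 84 combinations (21.4%) met the count of both replicates with HIF-1α, against 12.03% over all genes. With HIF-2α 2 did (2.38%), against 2.75% over all genes. KDM5C, an H3K4 demethylase like KDM5B, had HIF-1α peaks in 8 libraries and HIF-2α peaks in 2, with 9 of 10 peaks nearest to it and a median distance of 60 bp. Its mean percentile was higher with HIF-1α by 64.3 points, and that of HR by 64.5. Both entered the test through their HIF-1α peaks, and only 1 of its 13 peaks was nearer to HR than to another gene. No peak lay near KDM4D, KDM6A, PHF2, PHF8, RIOX1, RIOX2, JMJD7 or HSPBAP1.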

How the data were processed

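The authors trimmed reads with Trim Galore 0.3.3, aligned them to GRCh37 with BWA 0.7.5a-r405, removed poorly mapped reads with SAMtools 0.1.19, blacklisted regions with BEDTools 2.17.0 and duplicates with Picard 2.0.1, and called peaks library by library with MACS in control mode. The MACS version and the control are not given in the sources used here. Each deposited peak carries a score that the authors took from the peak caller, on a scale that is not stated. It was used only as a percentile within its list. The study's later filters on a second caller, HIF-1β and read counts were not applied to these lists.

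The 9 genes, the comparison lists and the tests were chosen with earlier results of these data known. Named besides the 9 were the 2 genes on other chromosomes with the most alike percentiles (1 of them is not reported here), comparison-list genes with a peak in both replicates of a group, and genes nearer to a site. Comparison-list genes with few peaks or none were added by name after their values were seen. KDM5C and HR are described because they met the count in all 4 HIF-1α groups. Distances ran from peak centres to start sites of protein-coding transcripts of GENCODE release 44 on GRCh37. Peaks sharing at least 1 bp were merged into sites. Of all peaks, 29 outside chromosomes 1 to 22, X and Y were left out. Sequences were read from GRCh37 with pysam 0.24.0. Stretches ran from the RCGTG match nearest the site centre, outside annotated untranslated regions, and up to further matches. The plan was to show none inside untranslated regions and only the site in most libraries, and short KDM3A stretches and the upstream KDM4C site were added after the data were seen.

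The best percentile within 50 kb was compared between isoforms as described, in Python 3.11.15 with numpy 2.4.6 and pandas 2.3.3, at an adjusted p of 0.05, and the function was tested on simulated data. Alternatives were other windows, start sites, assignments, score limits, filters and measures, equal list lengths, a replicate block and leaving out each library. Requiring the same site in both replicates, and shortened lists with the percentiles of the full lists, were added after the data were seen.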

Additional observations from a re-analysis of the deposited data

How the results depend on the processing

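The counts of combinations of gene and line with peaks in both replicates moved less than the number of calls given below. Shares over all genes were not computed under these alternatives. With HIF-1α the counts ranged from 20 (with every list reduced to its 275 top peaks) to 28 (either replicate) of 36, and with HIF-2α from 8 to 14. Requiring the same site in both replicates, an alternative chosen after seeing the data, gave 24 and 10. The number of genes called between isoforms, 415, moved more. It was 195 with a window of 10 kb, 676 with 100 kb and 137 when each peak was given only to its nearest gene, for which fewer or more genes were tested (1482, 6276 and 1397). It was 0 with presence in place of the percentile (774 genes at an unadjusted exact permutation p under 0.05) and 0 over the 11815 genes with a peak in at least 1 library (1197 genes). Leaving out 1 library gave 162 to 716 calls. It gave more calls without A549 HIF-1α replicate 2 (716), PC3 HIF-1α replicate 1 (636) or T47D HIF-1α replicate 1 (680), and fewer without A549 HIF-1α replicate 3 (201), A549 HIF-2α replicate 2 (162) or 3 (185), or T47D HIF-2α replicate 1 (188). The cause was not tested. Leaving out 1 library raised KDM4B past the threshold for A549 HIF-2α replicate 3 (exact permutation test, adjusted p = 0.0304), PC3 HIF-1α replicate 1 (0.0479) and T47D HIF-1α replicate 1 (0.0496), and KDM6B for A549 HIF-1α replicate 2 (0.0485).

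With the replicate number as a replicate block, 0 genes were called (716 at an unadjusted exact permutation p under 0.05), since the smallest p of its 256 relabellings is 0.00781, and KDM2A, KDM3A, KDM4C and KDM5B all had an adjusted p of 0.137. Over genes, the differences between replicates correlated between isoforms by -0.0425 to 0.0534 in the 4 lines. These values cannot tell whether libraries of the same number shared a culture or a batch. Under every alternative that gave a value, KDM2A and KDM4C kept a difference in favour of HIF-1α, of at least 38.4 and 71.3 points (equal lists). These genes had HIF-2α peaks within 50 kb in 0 and 1 libraries. The sign of their difference could therefore hardly change, and its persistence is given as a description. At or above the median score, 74.55, KDM4B (18.6 points, exact permutation test, adjusted p = 0.0479) and KDM6B (0.0479) passed and KDM5B did not (0.0613), the difference of KDM3A was 32.8 points, and KDM5B also failed with equal lists (0.0541). With the percentiles of the full lists kept in the shortened lists, added after seeing the data, KDM4B passed at 16.0 points (0.0230) with equal numbers and at 6.75 points (0.0457) at or above the median score, KDM6B passed at or above the median score (0.0479), and KDM5B failed under both (0.0547 and 0.0617). With a window of 10 kb KDM4B passed (0.0469).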

Other observations

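With HIF-1α, 8 of the 21 other JmjC genes had peaks in both replicates in HCT116 (27.8% of all genes) and 6 in PC3 (12.6%). These lines had the longest HIF-1α lists. In A549 (2.6%) and T47D (5.19%), HR and KDM5C alone did. Of 5 demethylases without a JmjC domain, KDM1A and TET2 did in HCT116 and PC3, and none did in A549 or T47D. KDM1A, an H3K4 demethylase that uses a flavin rather than 2-oxoglutarate, had HIF-1α peaks in 4 libraries, both replicates of HCT116 and of PC3, with a highest percentile of 98.0, and no HIF-2α peak. TET2, which oxidises 5-methylcytosine in DNA and needs the same cofactors as the JmjC enzymes, had HIF-1α peaks in 6 libraries, including both replicates of HCT116 and PC3, all 6 nearest to TET2 at a median distance of 153 bp. Neither passed the adjusted threshold between isoforms, TET2 with a difference of 50.4 points (exact permutation p = 0.0139, Benjamini-Hochberg adjusted p = 0.0782) and KDM1A with 44.8 points (exact permutation p = 0.0556, adjusted p = 0.112). Both entered the test through their HIF-1α peaks and had no HIF-2α peak. Their values thus restate where peaks were present and are given as a description. KDM1B had no peak, TET3 had peaks in 2 libraries and TET1 in 1.

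JARID2, a JmjC protein without demethylase activity that accompanies Polycomb, had peaks in 5 HIF-1α libraries, all nearest to it at a median of 655 bp, with both replicates in HCT116 and PC3. HIF1AN, the asparaginyl hydroxylase that limits HIF activity, had peaks in 4 HIF-1α libraries, both replicates of HCT116 and PC3, of which 2 of 5 peaks were nearest to it. Of the 10 comparison genes tested, JMJD4 alone had a lower mean percentile with HIF-1α (12.9) than with HIF-2α (18.9), a difference of -6.00 points that did not pass (exact permutation p = 0.333, adjusted p = 0.406).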
